A study of Mus musculus with 15 samples.

Results

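Transcripts of the NRF2 and glutathione antioxidant system were examined in RNA-seq data of mouse small intestinal organoids, which are epithelial structures grown from intestinal crypts. The 10 genes were Nfe2l2, Nqo1, Gclc, Gclm, Txnrd1, Hmox1, Srxn1, Gpx1, Gpx2 and Gpx4, out of 43629 genes in the count table. They were chosen by name, with earlier results on these data known. All organoids were of the C57B6/129 strain, and 13 libraries were assigned to groups from their labels. WT comprised 4 Apc flox/flox lines, numbered 1, 2, 5 and 6, and 1 dox-naive culture that carried an inducible Cas9 transgene which doxycycline had not activated, all grown in ENR medium with EGF, Noggin and RSPO1. Apc comprised 4 Apc delta/delta cultures with the same line numbers, and P-Rspo3 comprised 4 cultures, labelled 15d, 4d, M and F, in which Cas9 under a doxycycline-responsive promoter had made the Ptprk-Rspo3 rearrangement. Both mutant groups were grown in EN medium, without RSPO1, so genotype and medium cannot be told apart against WT. By the study's methods the P-Rspo3 cultures were polyclonal populations that grew out in EN. The basal medium of every group contained N-acetylcysteine, a precursor of cysteine and hence of glutathione. Of the remaining 2 libraries, NAIVE_F carries a naive title with a P-Rspo3 genotype, and LIPO a title that does not name the dox-naive genotype given for it. They entered no group and are given as single values.

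NRF2, the transcription factor encoded by Nfe2l2, is held at a low level by KEAP1, an adaptor that delivers it to a ubiquitin ligase. Oxidants and electrophiles modify KEAP1, NRF2 then accumulates, pairs with a small MAF protein and binds the antioxidant response element of its target genes. Because control is largely at the level of the protein, the transcript of Nfe2l2 and those of its targets are separate readouts. The targets examined here encode a quinone reductase (Nqo1), sulfiredoxin (Srxn1), cytosolic thioredoxin reductase (Txnrd1), haem oxygenase (Hmox1) and the catalytic and modifier subunits of glutamate-cysteine ligase (Gclc and Gclm), the rate-limiting enzyme of glutathione synthesis. The glutathione peroxidases reduce peroxides at the expense of glutathione. Gpx1 is the widespread cytosolic form, Gpx2 the form typical of gastrointestinal epithelium, and Gpx4 acts on lipid peroxides in membranes and restrains ferroptosis. In GRCm38 the genes lie apart from each other, with Nfe2l2 at chr2:75675513-75704641 (reverse strand), Nqo1 at chr8:107388225-107403206 (reverse strand), Gclc at chr9:77754535-77794485 (forward strand), Gclm at chr3:122245557-122270732 (forward strand), Txnrd1 at chr10:82833951-82897712 (forward strand). The others are Hmox1 at chr8:75093621-75100589 (forward strand), Srxn1 at chr2:152105516-152111376 (forward strand), Gpx1 at chr9:108338903-108340343 (forward strand), Gpx2 at chr12:76792333-76795554 (reverse strand) and Gpx4 at chr10:80047166-80056439 (forward strand).

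The motif TGACNNNGC, the letters of the antioxidant response element, was looked up on both strands of RefSeq promoter windows. These windows (GRCm38.p6) ran from 250 bases before to 50 after the start of transcription. Binding was not measured, so a match does not show that NRF2 binds there. Of the 8 genes with a window, 4 held the motif, against 14% of the 27025 genes with a window and 16.1% of 93 other antioxidant genes with one (15 genes). Each stretch is printed 5′ to 3′ on the strand of the motif, with the 9 letters in capitals. Distances are counted to the base of the motif that comes first along the gene, also where the motif is on the opposite strand. The stretches lie at chr3:122245413-122245441 for Gclm (opposite strand to the gene, 134 bases before the start of transcription) and at chr2:75704885-75704913 for Nfe2l2 (strand of the gene, 240 bases before). The others lie at chr2:152105542-152105570 for Srxn1 (opposite strand, 28 bases after) and at chr10:82859104-82859132 for Txnrd1 (opposite strand, 92 bases before the start of one of its annotated transcripts).
Gclm: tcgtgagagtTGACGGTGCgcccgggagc
Nfe2l2: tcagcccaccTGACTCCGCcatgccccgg
Srxn1: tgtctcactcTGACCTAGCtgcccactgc
Txnrd1: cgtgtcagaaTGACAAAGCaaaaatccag
None of the 4 matches contains the AP-1 letters TGANTCA. The windows of Nqo1, Gpx1, Gpx2 and Gpx4 did not hold these letters, which says nothing of sequence outside the windows. Of the 4 genes printed, Gclm and Srxn1 are among the 5 that fell in Apc organoids below, whereas Nfe2l2 and Txnrd1 did not pass the test.

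The assigned libraries held 28902729 to 35528495 reads counted on genes. Summed expression of 6 epithelial markers was 1347 to 1563 FPKM (fragments per kilobase of transcript, scaled to sequencing depth) in WT, 1278 to 1557 in P-Rspo3 and 1556 to 1880.0 in Apc, where only Apc 2 lay within the WT range. Within this sum Krt18 (161 to 220 FPKM in WT, 443 to 614 in Apc) and Cdh1 (110.4 to 145 and 164 to 205) were higher in Apc and Vil1 (149 to 207 and 82.3 to 99.0) was lower, each without overlap. Markers of differentiated cells moved with the Apc group. The 8 enterocyte markers summed to 3222 to 9357 FPKM in WT, 2213 to 5211 in P-Rspo3 and 46.2 to 73.5 in Apc, the 6 Paneth cell markers to 6198 to 9866, 3618 to 8160 and 651 to 1566, and the 5 goblet cell markers to 1725 to 2372, 1297 to 2936 and 136 to 426. These sums weigh abundant genes most, and the Paneth cell marker Mmp7 was instead higher in Apc (28.5 to 57.2 FPKM in WT, 88.4 to 198 in Apc). Stem cell markers did not move together. Olfm4 was at 472 to 1146 FPKM in WT and 0.272 to 2.10 in Apc, whereas Lgr5 (19.7 to 38.0 and 76.8 to 122), Ascl2 (9.71 to 18.5 and 38.8 to 57.6) and Smoc2 (48.1 to 73.1 and 135 to 213) were higher in Apc without overlap. The mesenchymal markers Col1a2, Col3a1 and Dcn had at most 3 counts in every assigned library, and Kdr, Hba-a1 and Hbb-bs had 0. The sums for mesenchyme (at most 0.0464 FPKM in WT, 0.233 to 0.416 in Apc) and endothelium (0.289 to 0.389 and 1.17 to 2.07) were low but higher in Apc, through Pdgfra (0 to 4 counts in WT, 54 to 73 in Apc) and Cdh5 (0 counts in every WT and P-Rspo3 library, 217 to 372 in Apc), and the sum for blood cells was at most 0.788 FPKM. In bulk libraries fewer cells of a type and less RNA per cell cannot be told apart, and the part of cell composition in the results for Apc was not tested. The transcript of Apc itself was at 28.3 to 30.5 FPKM in the Apc group and 11.6 to 22.3 in WT, and a count over the whole gene does not show whether the floxed exons were deleted. Rspo3 had 539 to 1079 counts in P-Rspo3, 7 to 57 in Apc and at most 1 in WT. In the ungrouped libraries it had 729 counts in NAIVE_F, within the P-Rspo3 range, and 0 in LIPO. Groups were set from the labels alone, so both stayed ungrouped.

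Apc organoids were first compared with WT, which asks what loss of Apc does to this system. Of the 10 genes, 5 fell (Nqo1, Srxn1, Gclc, Gclm and Gpx4), 1 rose (Gpx2) and 4 did not pass the test, where a gene rose or fell at an adjusted p under 0.05 by the quasi-likelihood test of edgeR, adjusted over all genes by Benjamini-Hochberg. Among the 16749 genes tested, 29% fell and 30% rose. All 5 falls also exceeded 2-fold, where 14.1% of all genes did so. The median log2 fold change of the 10 genes was -0.80, against 0.00 over all genes. No claim on the set follows from this, because the genes were chosen with results on these libraries known.

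Nqo1, which reduces quinones in 2-electron steps, differed most. It was at 118, 106, 73.4, 123 and 245 FPKM in WT 1, 2, 5, 6 and the dox-naive library and at 16.2, 8.44, 11.4 and 16.8 in Apc 1, 2, 5 and 6. Every Apc library thus lay more than 4-fold below the lowest WT library. The fall was 12.2-fold, a log2 fold change of -3.60 (standard error 0.37, edgeR adjusted p = 1.1e-05). In rank among genes of at least 0.1 FPKM, Nqo1 went from above 96.3% of genes in WT to above 63.2% in Apc.

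Srxn1, which restores overoxidised peroxiredoxins, was at 57.2, 68.2, 66.8, 51.4 and 104 FPKM in WT and at 18.1, 15.1, 18.6 and 28.2 in Apc. The groups did not overlap. The log2 fold change was -2.14 (standard error 0.24, edgeR adjusted p = 2.2e-05), a 4.42-fold fall.

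Both subunits of glutamate-cysteine ligase fell. Gclm, the modifier subunit, was at 112, 150.3, 102, 135 and 251 FPKM in WT and at 69.6, 66.8, 75.6 and 80.0 in Apc, without overlap (log2 fold change -1.25, standard error 0.24, edgeR adjusted p = 0.000919). Gclc, the catalytic subunit, was at 49.2, 68.4, 33.3, 82.6 and 197 FPKM in WT and at 30.5, 26.0, 27.1 and 41.0 in Apc, where WT 5 lay below Apc 6. Its log2 fold change was -1.75 (standard error 0.45, edgeR adjusted p = 0.00626), and the dox-naive library was by far the highest in WT. Without that library the WT mean of Gclc went from 86.2 ± 64.9 (SD, n = 5) to 58.4 ± 21.6 FPKM (SD, n = 4) and the log2 fold change to -1.18 (edgeR adjusted p = 0.00248). When the 4 lines present in both groups were fitted with a replicate block, it was -1.13 for Gclc (edgeR adjusted p = 0.000994) and -0.97 for Gclm (edgeR adjusted p = 0.000943). The Gclm fall was then below 2-fold. A small share of Gclm reads may belong to Gm17494 and Gm6061, whose exons overlap it, but these genes had at most 346 counts over all 15 libraries, against 84567 for Gclm.

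**Figure D1:**
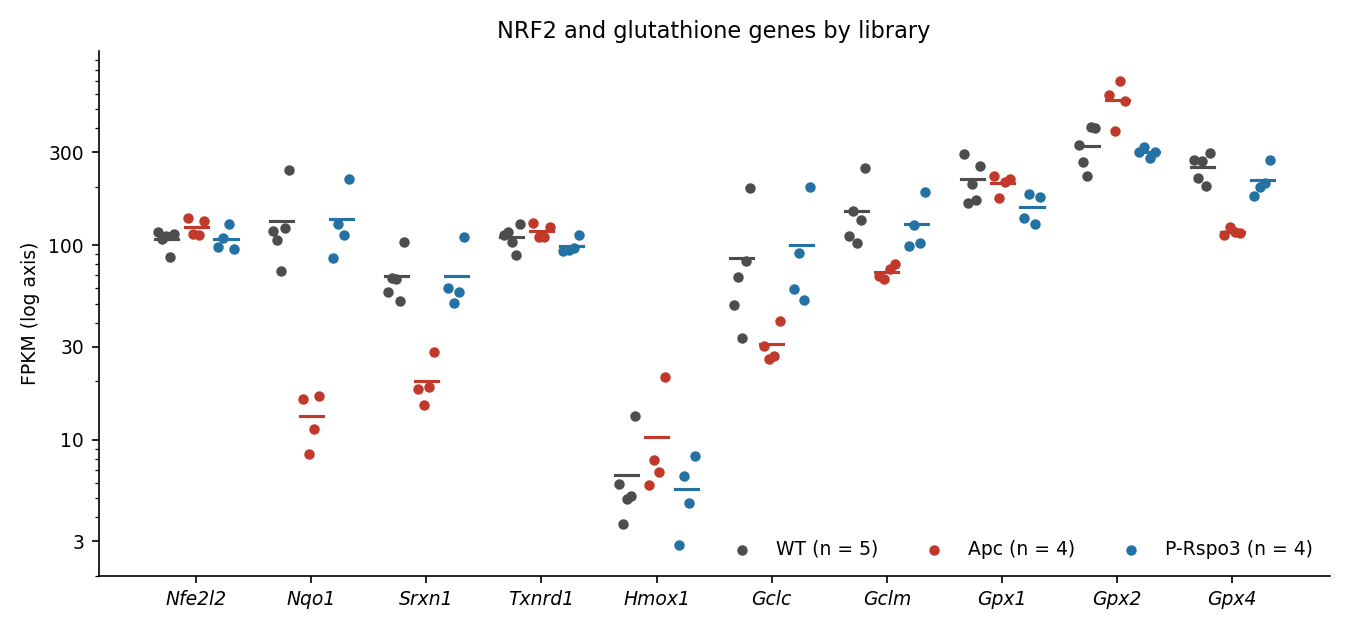
FPKM of the 10 genes (log axis) in each of the 5 WT, 4 Apc and 4 P-Rspo3 libraries, with bars at the group means. Nqo1, Srxn1, Gclm and Gpx4 were lower in every Apc library than in any WT library, while Nfe2l2 and Txnrd1 overlapped in all groups.

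Nfe2l2 itself did not pass the test. It was at 117, 107, 112, 87.3 and 114 FPKM in WT and at 138, 114, 113 and 133 in Apc, with overlapping groups and a log2 fold change of -0.04 (95% interval -0.28 to 0.20, edgeR adjusted p = 0.788). Its direction depended on the scaling of the libraries, since it was 0.26 (edgeR adjusted p = 0.0448) when counts were scaled by library size alone, a scaling that moved the median of all genes to 0.29. Without Apc 2 or Apc 5 it also crossed 0 (0.00 and 0.01). The highest WT library was 1.34 times the lowest, so the WT libraries were close together for this gene.

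The NRF2 targets Txnrd1 and Hmox1 did not follow Nqo1 and Srxn1 past the threshold. Txnrd1 was at 113, 117, 104, 88.7 and 129 FPKM in WT and at 129.8, 110.0, 111 and 124 in Apc, and its log2 fold change was -0.19 (95% interval -0.44 to 0.07, edgeR adjusted p = 0.187), but 0.11 with library size alone and with both limma fits. Without WT 6 it was -0.28 and passed (edgeR adjusted p = 0.0204). Hmox1, which opens the haem ring, had the lowest group mean of the 10 in WT and in Apc, though in Apc its libraries overlapped those of Nqo1. It was at 5.92, 3.70, 4.93, 5.14 and 13.2 FPKM in WT and 5.86, 7.85, 6.82 and 21.0 in Apc. In each group 1 library was far above the others, the dox-naive library in WT and Apc 6. The log2 fold change of Hmox1 was 0.38 with a wide 95% interval of -0.61 to 1.37 (edgeR adjusted p = 0.495), so neither a fall nor a rise of 1.5-fold could be told from no change with these libraries. Without Apc 6 the direction turned (-0.18, edgeR adjusted p = 0.741), and without the dox-naive library the value was 0.84 (edgeR adjusted p = 0.0743). Whether the change of Txnrd1 or Hmox1 differed from that of Nqo1 was not tested.

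The 3 glutathione peroxidases had the highest mean FPKM of the 10 genes in WT, and they went different ways. Gpx4, the lipid peroxide reductase, was at 276, 222, 269.8, 201 and 299 FPKM in WT and at 112, 123, 117 and 115 in Apc. The Apc libraries were close together, with a coefficient of variation of 3.97%, and all were below WT (log2 fold change -1.40, standard error 0.12, edgeR adjusted p = 2.5e-06). Gpx2 was at 327, 267, 227, 405 and 403 FPKM in WT and at 593, 386, 697 and 550.4 in Apc, where Apc 2 lay below WT 6 and the dox-naive library. Its rise was 1.40-fold (log2 fold change 0.49, standard error 0.19, edgeR adjusted p = 0.0494). This call is at the edge of the threshold, because 7 of 21 alternative settings lost it, namely DESeq2 size factors (edgeR adjusted p = 0.0521) and the fits without WT 1, 2 or 5 or without Apc 1, 5 or 6 (log2 fold change 0.37 to 0.50, largest edgeR adjusted p = 0.153). Gpx1 was at 294, 164, 206, 171 and 254 FPKM in WT and at 228, 174, 211 and 219 in Apc, and did not pass (log2 fold change -0.35, 95% interval -0.70 to 0.01, edgeR adjusted p = 0.0847). It passed in 3 of 21 alternatives, namely without WT 2, without WT 6 and with the 2 ungrouped libraries placed by their genotype field (largest fall -0.44).

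As shares of the summed FPKM of Gpx1, Gpx2 and Gpx4, which compares levels between genes per length, Gpx2 made up 40.8 ± 7.45% in the 5 WT libraries (SD), 62.5 ± 4.74% in the 4 Apc libraries and 45.0 ± 3.68% in the 4 P-Rspo3 libraries. Its share was 32.3% to 52.1% in the WT libraries and 56.5% to 68.0% in the Apc libraries, which did not overlap. The share of Gpx4 was 32.1 ± 4.6% in WT, 13.6 ± 3.01% in Apc and 31.8 ± 3.89% in P-Rspo3 over the same libraries. Gpx1 made up 27.2 ± 4.12%, 23.8 ± 2.19% and 23.2 ± 2.2%. The summed FPKM of all 3 overlapped between the groups, with 797 ± 128 in WT, 882 ± 145 in Apc and 674 ± 67.5 in P-Rspo3. Reads of the pseudogene Gpx2-ps1 were few, with 37 counts over all libraries.

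**Figure D2:**
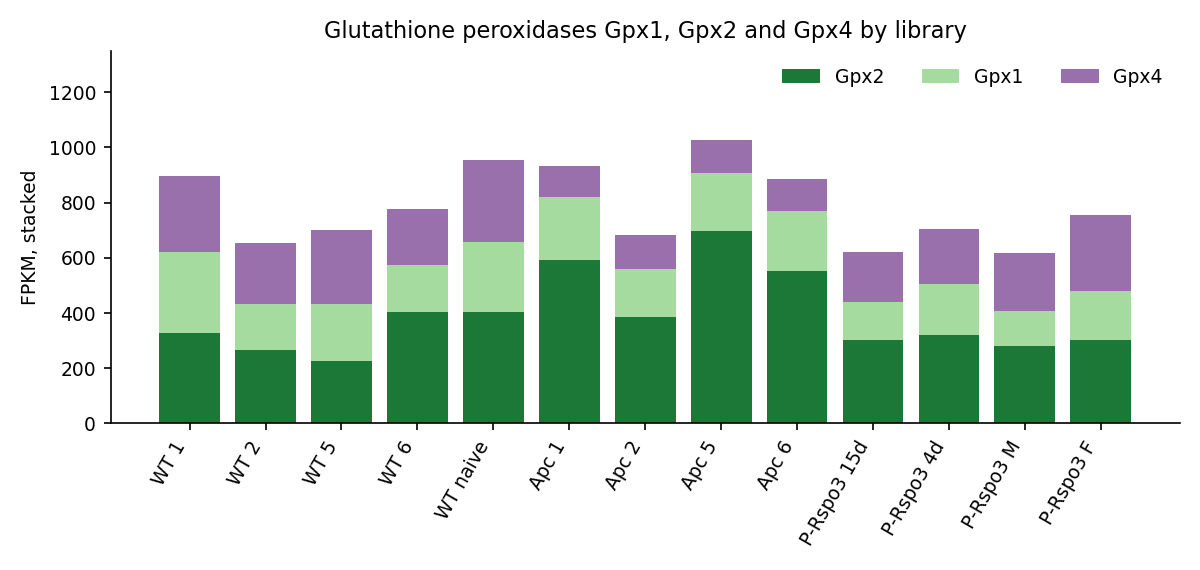
Stacked FPKM of Gpx2, Gpx1 and Gpx4 in each of the 13 libraries, with the axis from 0. Gpx4 takes 11.4% to 18.1% of the bar in the 4 Apc libraries and 25.9% to 38.4% in the 5 WT libraries, while Gpx2 takes the largest share in every Apc library.

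P-Rspo3 organoids were next compared with WT, which asks whether the rearrangement alters the same genes. None of the 10 rose or fell by edgeR's quasi-likelihood test, where 1 gene of 15992 rose (0.00625%, Rspo3) and 0% fell. At an unadjusted p under 0.05 there was 1 of the 10, Gpx1, against 13.5% of all genes. DESeq2 also called none of the 10, where 1.38% of 14803 genes rose and 2.05% fell. The edgeR count over all genes depended on the dox-naive library, since 233 genes rose and 154 fell without it. Over the fits without 1 other library, 1 to 3 rose and 0 to 9 fell. The count also depended on the method, since 43 genes rose and 87 fell with all groups in 1 fit. Of the 5 WT libraries 4 were Apc flox/flox lines, so in the main fit genotype and line could be told apart at most through the dox-naive library. Without it WT held only Apc flox/flox lines, so genotype and line could not be told apart. The median log2 fold change of the 10 genes was -0.13. The test gave no call in any of 21 alternative settings, among them 1 without both the dox-naive library and P-Rspo3 F.

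Gpx1 was at 138, 183, 129 and 178 FPKM in the P-Rspo3 libraries 15d, 4d, M and F. Of these, 15d and M were below every WT library and 4d and F within the WT range, with a log2 fold change of -0.47 (95% interval -0.90 to -0.04, edgeR adjusted p = 0.328). Gpx4 was at 178, 199.5, 208 and 275 FPKM (log2 fold change -0.26, 95% interval -0.64 to 0.11, edgeR adjusted p = 0.534). Gpx2 was at 303, 321, 280.5 and 303 FPKM, with a coefficient of variation of 5.46% (log2 fold change -0.11, 95% interval -0.47 to 0.25, edgeR adjusted p = 0.817). The intervals for Gpx2 and Gpx4 thus reach less than 2-fold on either side.

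For the genes that fell in Apc organoids, the P-Rspo3 values lay within or close to the WT range. Nqo1 was at 86.1, 128, 113 and 218 FPKM (log2 fold change 0.06, 95% interval -0.74 to 0.86), Srxn1 at 59.96, 50.2, 57.2 and 109.9 (0.00, interval -0.65 to 0.65) and Gclm at 98.6, 126, 102 and 188 (-0.18, interval -0.83 to 0.46). Gclc was at 59.9, 91.2, 52.5 and 199 FPKM (0.25, interval -0.96 to 1.46). Their smallest adjusted p in edgeR was 0.838. In each of these 4 genes library F stood well above the other 3. Over the alternatives the value of Gclc ran from -0.37 to 0.83 and that of Nqo1 from -0.30 to 0.41. A difference of 1.5-fold in either direction lies inside the intervals of Nqo1, Srxn1 and Gclc. Nfe2l2 was at 97.97, 108, 129 and 95.6 FPKM, with a log2 fold change of 0.02 and a narrower interval of -0.24 to 0.28 (edgeR adjusted p = 0.977). Txnrd1 was at 93.6, 94.0, 97.3 and 114 FPKM (-0.15, interval -0.44 to 0.14) and Hmox1 at 2.88, 6.48, 4.71 and 8.25 (-0.20, interval -1.12 to 0.72).

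**Figure D3:**
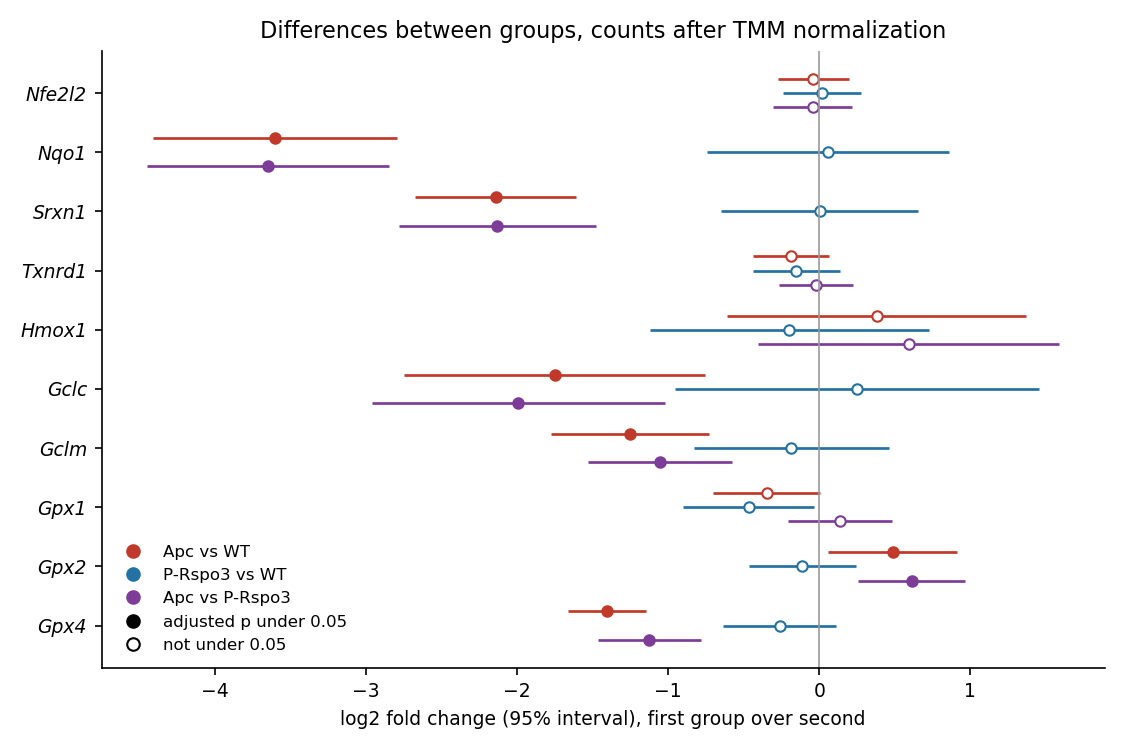
Log2 fold changes of the 10 genes with 95% intervals from edgeR for Apc against WT, P-Rspo3 against WT and Apc against P-Rspo3, filled where the adjusted p was under 0.05. The filled points are the falls of Nqo1, Srxn1, Gclc, Gclm and Gpx4 and the rise of Gpx2 in both comparisons with Apc, and no interval for P-Rspo3 against WT has a filled point.

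The mutant groups were then compared with each other, since both were grown in EN medium. The lines differ, and the Apc libraries also enter the comparison with WT, so the values are not independent of those above. Apc organoids again had 5 genes lower (27.7% of 16456 genes fell) and 1 higher (28.7% rose), the same genes as against WT, and the 5 falls exceeded 2-fold, as did 13.3% of all genes. Nqo1 fell by 3.65 on the log2 scale (standard error 0.35, edgeR adjusted p = 2.6e-05) and Srxn1 by 2.13 (standard error 0.29, edgeR adjusted p = 0.000203). Gpx4 fell by 1.13 (edgeR adjusted p = 0.000188), Gclc by 1.99 (edgeR adjusted p = 0.00324) and Gclm by 1.05 (edgeR adjusted p = 0.00209). For these genes every Apc library was below every P-Rspo3 library. Gpx2 rose by 0.61 (standard error 0.16, edgeR adjusted p = 0.00809), again without overlap between the groups, and passed in all 19 alternatives run on this comparison.

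Nfe2l2 (log2 fold change -0.04, 95% interval -0.31 to 0.22), Txnrd1 (-0.02, interval -0.27 to 0.23), Gpx1 (0.14, interval -0.21 to 0.48) and Hmox1 (0.59, interval -0.41 to 1.59) did not pass. Gpx1 passed with library size alone and with both limma fits (0.40 to 0.42). Without P-Rspo3 library F the fall of Gclc was -1.38, that of Gclm -0.80 and that of Gpx4 -0.96 on the log2 scale, so that 3 falls exceeded 2-fold instead of 5, and all 5 still passed the test.

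Within WT and within P-Rspo3, the same library was highest for most of the 10 genes. Gclc, Gclm, Gpx4, Hmox1, Nqo1, Srxn1 and Txnrd1 were highest in the dox-naive library among the 5 WT libraries, and the same 7 were highest in F among the 4 P-Rspo3 libraries. For the genes with a mean of at least 10 FPKM, this was 6 of 9 in each library, beside 13.5% of 6712 genes that were highest in the dox-naive library and 19.8% of 6810 genes that were highest in F. Gclc was 3.38 times the mean of the other WT libraries in the dox-naive library and 2.93 times that of the other P-Rspo3 libraries in F. The ratios were 2.33 and 2.005 for Nqo1, 2.01 and 1.72 for Gclm, 1.70 and 1.97 for Srxn1 and 2.68 and 1.76 for Hmox1, but smaller for Gpx4 (1.23 and 1.41) and Txnrd1 (1.22 and 1.20). Nfe2l2, at 1.08 and 0.856, was not raised in either. A further list of 17 NRF2 targets behaved alike, with 11 of the 14 genes at this level highest in the dox-naive library and 11 of 14 in F. Other lists shared this in part. Over all 10 lists read below, which include these targets, 32 of 76 genes at this level were highest in the dox-naive library and 40 of 76 in F. By list the share ran from 0% to 78.6% in each of these libraries, with the other NRF2 targets at the top. For NADPH supply it was 44.4% and 66.7%, and for glutathione synthesis and turnover 40% and 60%. For NRF2 regulators it was 22.2% and 44.4%, and for selenoprotein synthesis 20% in both.

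Several of these genes varied widely within WT. Gclc had a coefficient of variation of 75.3% in WT, higher than in 98.02% of the genes with a mean of at least 10 FPKM, and Nqo1 of 49.2%, whereas Nfe2l2 had 11.0%. Without the dox-naive library they were 37.0% for Gclc and 21.3% for Nqo1. In Apc the same coefficients were 22.0% for Gclc and 30.3% for Nqo1, so that the order of Nqo1 between WT and Apc rested on that library. Enterocyte markers summed to 6204 FPKM in the dox-naive library, within the WT range, and to 5211 in F, the highest of its group. The part of culture state or handling in these libraries was not tested. The library LIPO, which entered no group, was at 262 FPKM for Nqo1 and 218 for Gclc, next to the dox-naive library and F, and NAIVE_F was at 117 and 62.2.

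**Figure D4:**
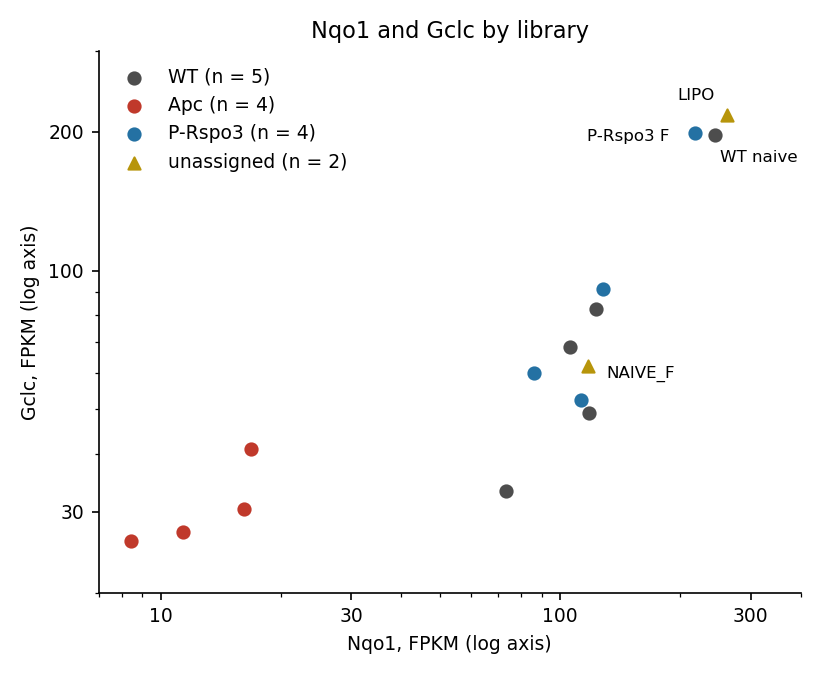
FPKM of Nqo1 and Gclc (log axes), 1 point per library. The 4 Apc libraries lie below 17 FPKM of Nqo1, and the dox-naive WT library, P-Rspo3 F and LIPO lie together at 197 to 218 FPKM of Gclc, above 91.2 in every other library.

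The wider system was read from 10 lists with 103 further genes, of which 95 were tested between Apc and WT. In all, 64 fell and 13 rose, 33 were more than 2-fold lower and 6 more than 2-fold higher, and the median log2 fold change was -0.62. The percentages of all genes given above apply, with 12.2% more than 2-fold higher. Of 17 other NRF2 targets 16 were tested, and 13 fell and 2 rose, with a median of -1.43. The largest falls that separated the groups were Cbr3, a carbonyl reductase (104 to 7.90 FPKM, log2 fold change -4.01, edgeR adjusted p = 4.0e-07), and Osgin1, an oxidative stress response gene (-3.20, edgeR adjusted p = 1.1e-06). The 2 that rose were the transporters Abcc4 (2.33 to 23.6 FPKM, 3.06, edgeR adjusted p = 3.5e-06) and Abcc1 (1.23, edgeR adjusted p = 8.4e-06), which export organic anions and glutathione conjugates. The 13 targets that fell also carry functions beyond antioxidant defence, since Fth1 (2761 to 846 FPKM) stores iron and Gsta4 (402 to 170 FPKM) and Gstm1 (1270 to 190 FPKM) conjugate electrophiles, these 3 being named after their values were seen.

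Among 12 regulators of NRF2, 6 fell and 3 rose (median -0.14). Nfe2l3, a paralogue of NRF2, rose from 0.246 to 5.46 FPKM (log2 fold change 4.02, edgeR adjusted p = 2.1e-06), with 13 to 47 counts in WT libraries and 358 to 783 in Apc libraries. Btrc, a substrate adaptor of an alternative route to NRF2 degradation, rose by 0.32 (edgeR adjusted p = 0.0111). Bach1, the repressor that competes for the antioxidant response element, fell from 20.5 to 9.55 FPKM (-1.43, edgeR adjusted p = 7.5e-07), and the small MAF gene Mafk fell by 0.71 (edgeR adjusted p = 6.1e-05). Keap1, named after its values were seen, fell by 0.40 (edgeR adjusted p = 0.000197), but with library size alone the value was -0.11 and did not pass (edgeR adjusted p = 0.14). Under that scaling 6 of the regulators rose and 3 fell, and their median turned to 0.16.

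Of 16 genes of glutathione synthesis and turnover 14 were tested, and 10 fell and 2 rose (median -0.78). Ggt1, the surface enzyme that begins the breakdown of extracellular glutathione, went from 189.6 to 0.137 FPKM, with 1 to 6 counts in the Apc libraries and 3675 to 9610 in WT (log2 fold change -11.43, edgeR adjusted p = 4.7e-08). It is an apical enzyme of absorptive cells and fell beside the enterocyte markers, but the part of cell composition in its fall was not tested. Gsr, which regenerates reduced glutathione, fell by 1.24 (edgeR adjusted p = 0.000213). Glrx3 rose by 0.51 (edgeR adjusted p = 0.000136) and Ggct by 0.36 (edgeR adjusted p = 0.0462), the latter in 11 of 21 alternatives. Slc7a11, the cystine importer and a textbook NRF2 target, did not pass (0.25, edgeR adjusted p = 0.554), and was named for its role.

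Thioredoxin and peroxiredoxin genes were 11, of which 7 fell and 2 rose (median -0.41). Txn1 fell from 684 to 343 FPKM (log2 fold change -1.28, edgeR adjusted p = 4.2e-07) and Prdx5 by 1.47 (edgeR adjusted p = 4.5e-05). Prdx4, the peroxiredoxin of the endoplasmic reticulum, rose by 0.64 (edgeR adjusted p = 0.000492) and Prdx2 by 0.32 (edgeR adjusted p = 0.00384). With library size alone 4 of these genes fell and 3 rose. Of 9 genes of NADPH supply 6 fell and 0 rose, led by Me1 (-2.30, edgeR adjusted p = 1.4e-05) and Idh1 (-1.26, edgeR adjusted p = 1.7e-05). With library size alone and with both limma fits, 5 of these 9 fell and 2 rose. Without the dox-naive library and with the replicate block, 6 fell and 1 rose. Catalase (Cat) fell from 187 to 29.8 FPKM (-2.92, edgeR adjusted p = 1.9e-07) and mitochondrial Sod2 by 0.63 (edgeR adjusted p = 5.1e-05), so that all 3 tested of the 4 superoxide dismutase and catalase genes fell. Of 5 tested NADPH oxidase genes out of 8, 4 fell, among them the maturation factor Duoxa2, which was low throughout (0.607 to 0.1001 FPKM, -2.50, edgeR adjusted p = 0.000292).

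The glutathione peroxidases are selenoproteins, and 4 of the 6 genes listed for selenoprotein synthesis fell, with a median of -0.50. Sepsecs, the selenocysteine synthase, fell by 1.23 (edgeR adjusted p = 6.8e-07) and Pstk, the kinase before it, by 0.91 (edgeR adjusted p = 2.8e-05). Of 12 other selenoproteins 7 fell and 2 rose (median -0.34). Selenop, the secreted carrier of selenium, fell from 475 to 12.9 FPKM (-5.51, edgeR adjusted p = 9.3e-08) and Selenom by 1.96 (edgeR adjusted p = 1.0e-05). Selenon rose from 0.494 to 8.95 FPKM (3.93, edgeR adjusted p = 8.2e-07) and the nucleolar Selenoh from 22.4 to 74.6 (1.49, edgeR adjusted p = 2.8e-06). With library size alone 4 rose and 3 fell.

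Of 8 genes of lipid peroxidation and ferroptosis 7 were tested, and 4 fell and 2 rose (median -0.96). Acsl4, which activates polyunsaturated fatty acids for membrane lipids, rose from 7.31 to 23.8 FPKM (log2 fold change 1.39, edgeR adjusted p = 4.4e-07), and Tfrc, the transferrin receptor, from 95.2 to 208 (0.82, edgeR adjusted p = 0.00131). Gch1, the entry enzyme of tetrahydrobiopterin synthesis, fell by 2.37 (edgeR adjusted p = 9.0e-06) and Lpcat3, which places polyunsaturated chains in phospholipids, by 1.09 (edgeR adjusted p = 4.7e-06).

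**Figure D5:**
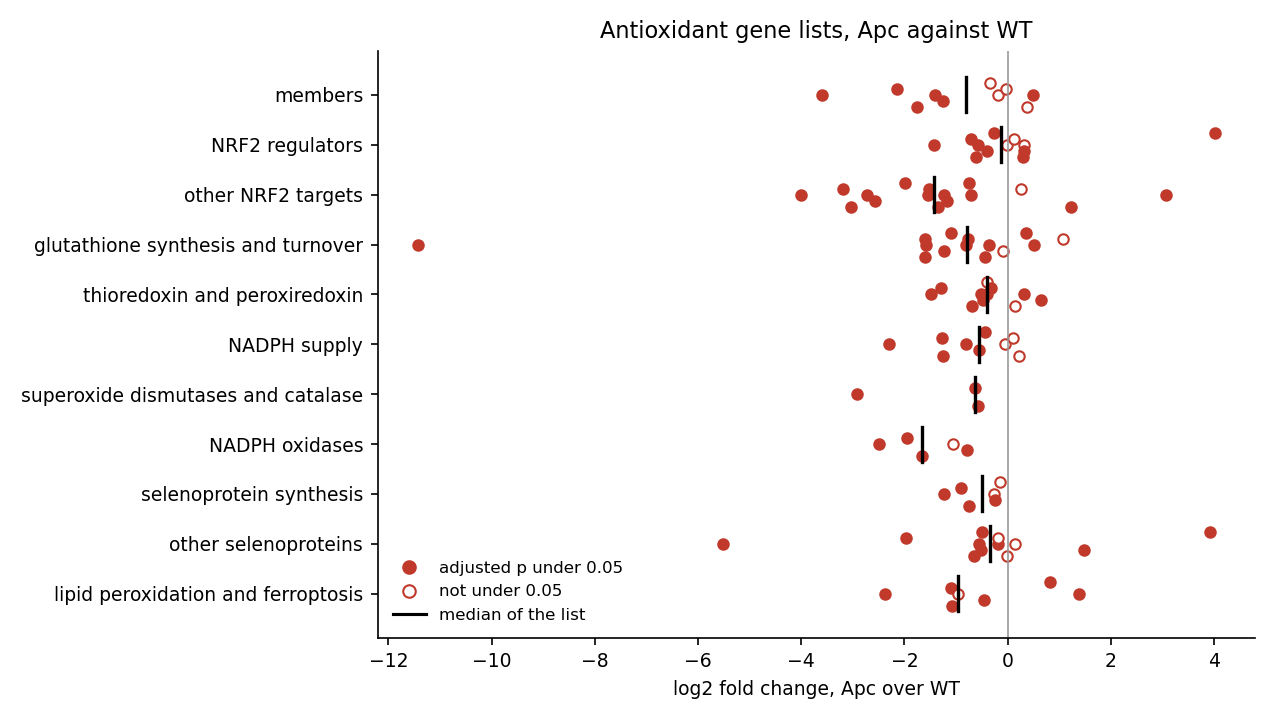
Log2 fold change of Apc over WT for each tested gene of the 10 chosen genes and of the 10 further lists, filled where the edgeR adjusted p was under 0.05, with a bar at the median of each list. The medians run from -1.66 for NADPH oxidases to -0.14 for NRF2 regulators, and Ggt1 is the point at -11.43.

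In P-Rspo3 against WT 94 of the 103 genes were tested, and none rose or fell by edgeR's test (7 had an unadjusted p under 0.05, and DESeq2 called 1 up and 1 down, beside the DESeq2 shares of all genes given above), with a median of -0.03. The smallest adjusted p, 0.0958, was that of Noxa1, the activator subunit of an epithelial NADPH oxidase, which is named here after its values were seen. Noxa1 was at 0.354, 2.07, 4.12, 3.56 and 2.74 FPKM in WT 1, 2, 5, 6 and the dox-naive library and at 0.253, 0.145, 0.319 and 0.245 in P-Rspo3. WT 1 was thus near the P-Rspo3 values, and the log2 fold change was -3.23 (standard error 0.60). It passed without WT 1 (-3.51, edgeR adjusted p = 0.00397), without the dox-naive library (-3.20, edgeR adjusted p = 0.0347) and with DESeq2 (adjusted p = 1.0e-06). In Apc the gene was at 0.0854, 0.215, 2.86 and 3.17 FPKM, low in lines 1 and 2 and high in lines 5 and 6. In Apc against P-Rspo3, 60 of 94 list genes fell and 16 rose, where 27.7% of all 16456 genes fell and 28.7% rose.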

How the data were processed

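RNA was sequenced from 15 organoid cultures. Per the study's notes STAR served for alignment, on GRCm38, and the authors deposited unnormalized whole-number counts per gene (HTSeq 0.6.0) and FPKM (Cufflinks 2.2.1). Neither the release of the gene annotation nor whether HTSeq used strand is given in the sources used here, so reads shared by overlapping genes or near-identical copies are uncertain. Groups came from the sample labels, and no sequencing batch is named. Libraries of a group all differed by more than sampling noise, with a chi-square per gene of at least 22.4.

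Counts were tested with edgeR 4.0.16 (glmQLFit and glmQLFTest at the defaults, TMM) in R 4.3.3, with Benjamini-Hochberg adjustment over genes of at least 0.1 FPKM in as many libraries as the smaller group has. A gene more than 2-fold higher or lower had an adjusted p under 0.05 and a log2 fold change beyond 1. FPKM was used for levels, which compare genes per length. As cultures are not stated to come from separate animals, p-values measure the spread between these libraries. At most 3 counts were read as not detectable, which covers counting error only. The fitting script was tested on simulated data.

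The 10 genes and all lists were chosen with earlier results on these data known. From each list, the 2 largest increases and 2 largest decreases of Apc against WT that passed and did not overlap are named. Dpep1 and Cyba are not analysed here. Same-numbered WT and Apc libraries share a line by their titles. Their deviations from the group means correlated with a median r of 0.113 (-0.0057 to 0.220, 4 pairs), against -0.044 for the 12 other pairs, as a description. Alternatives were DESeq2 1.42.0 and its size factors, library size alone, the newer edgeR form, 2 other filters, all groups in 1 fit, limma 3.58.1 on log2(FPKM + 1) and log2(FPKM + 0.1), each library left out, both placements of the 2 ungrouped libraries and the replicate block. Leaving out the dox-naive library and P-Rspo3 F together was added after the data were seen.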

Additional observations from a re-analysis of the deposited data

Results flagged for a closer look

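A library far from the others of its group was found in 3 of 30 groups examined, where chance picks about 1 in 20. Hmox1 was at 13.2 FPKM in the dox-naive library (3.70 to 5.92 in the other WT libraries) and at 21.0 FPKM in Apc 6 (5.86 to 7.85 in the other Apc libraries). Srxn1 was at 109.9 FPKM in P-Rspo3 F (50.2 to 59.96 in the other P-Rspo3 libraries). In LIPO, which entered no group, 5 of the 10 genes were above every WT library, with Nqo1 at 262 FPKM (WT up to 245), Gclc at 218 (197), Gclm at 261 (251), Txnrd1 at 149 (129) and Gpx4 at 300.5 (299). None was above WT in NAIVE_F. The cause of these values was not tested.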

How the results depend on the processing

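The falls of Nqo1, Srxn1, Gclc, Gclm and Gpx4 passed in all 21 alternatives for Apc against WT and all 19 for Apc against P-Rspo3, and none of the 10 genes passed in the 21 for P-Rspo3 against WT. With the replicate block, 5 genes fell and 1 rose in Apc against WT, 4 of them more than 2-fold lower, and the lists had 59 falls and 14 rises. The block changed no other call of the 10 genes.

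In Apc against WT, the number of the 10 genes that rose was 0 with DESeq2 size factors and 2 with library size alone, where Nfe2l2 turned to 0.26. It ranged from 0 to 1 over the fits without 1 library. The number of list genes that rose was 22 with library size alone, 20 with limma on log2(FPKM + 1) and 21 on log2(FPKM + 0.1), and 19 were more than 2-fold lower with the former limma fit. In the same settings and order 48, 45 and 45 list genes fell, against 64 in the main fit. The median log2 fold change of the lists was then -0.32, -0.28 and -0.30, against -0.62. Scaling by library size moved the median of all genes to 0.29 and the calls beyond 2-fold from 2048 higher and 2364 lower to 2818 and 1849.

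In Apc against P-Rspo3, 2 of the 10 genes rose with library size alone and 3 with each limma fit, where Txnrd1 turned to 0.25 in both, and 3 were more than 2-fold lower in these 3 settings. Over the fits without 1 library this last number was 3 to 5. With no FPKM filter 13 list genes were more than 2-fold higher, against 8.

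In P-Rspo3 against WT, DESeq2 called 1 list gene up (Chac1) and 1 down (Noxa1, also more than 2-fold lower). With all groups in 1 fit 1 fell, more than 2-fold (Alox15, at most 2 counts per P-Rspo3 library). Over the fits without 1 library the numbers that fell and that were more than 2-fold lower were each 0 to 1 (Noxa1, without WT 1 or without the dox-naive library). Hmox1, the lowest of the 10 genes by group mean, had at least 197 counts in every assigned library. No other alternative changed these counts by more than 1.5 times. The causes of the changes were not tested.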
